A study of Rattus norvegicus with 112 samples.

Results

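The genes described here are those of the rat voltage-gated potassium, sodium and calcium channels and of the channel genes that carry the same symbol prefixes. Members were all genes whose symbol begins with Kcn, Scn or Cacn, except the epithelial sodium channel genes (Scnn), and that have a probe set assigned to that gene alone. They numbered 71 of the 720 genes named on the array. They held 115 probe sets, and each gene is given by its probe set with the highest mean over the series. The rule used names only, so it also takes in genes that are not gated by voltage. By class there were 27 voltage-gated potassium channel alpha subunits, 13 inward rectifiers, 9 sodium channel alpha subunits, 7 calcium channel alpha1 subunits, 4 calcium- or sodium-activated potassium channels, 3 potassium channel partner subunits, 3 calcium channel beta subunits and 2 of the 2-pore potassium channels. The alpha2delta, gamma and sodium channel beta subunits had 1 gene each.

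The 112 arrays were Affymetrix gene chips that measured mRNA of rat cortical neurons in primary culture, in 10 runs. NMDA, the agonist that names the NMDA class of glutamate receptor, was given at 1 mM throughout. In the continuous run, cultures were exposed for 10, 30, 60, 180 or 360 min, with 3 arrays per group and 3 untreated controls. In the pulse run, NMDA was given for 10, 30 or 60 min and removed, and RNA was taken 24 h later, with 4 arrays per group and 4 controls. A further pulse set had 1 array per group, and 4 repeat arrays belonged to the pulse run, 1 of them with the same values as its first array to within 0.05. In the crossed run, 3 arrays each were control, NMDA for 60 min, 10 uM nicotine for 18 h, and both. In the washed-out design, 5 cultures each were control, NMDA for 30 min, nicotine for 18 h, and both, and all were harvested 24 h after removal. These 20 RNA samples were hybridised 2 times, and the passes are called the first run and the repeat run. Per the labels, the rerun followed an oven failure, and which arrays it touched is not given there. The remaining runs held 3 treated and 3 control arrays each, for 15 min of nicotine with RNA taken 45 min after its removal, for 18 h of 2 uM 4R, which the labels call a non-competitive antagonist of nicotinic receptors, and for 4R followed by 24 h without it. The labels number the cultures and date some of them without saying whether they came from separate animals, so p-values measure the spread between these samples, which may be partly technical.

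Voltage-gated channels open when the membrane depolarises. Sodium channel alpha subunits carry the rising phase of the action potential, potassium channels repolarise the membrane and set firing patterns, and calcium channels couple depolarisation to transmitter release and to gene expression. Alpha subunits form the pore, while beta, alpha2delta and the Kcne, Kcnab and Kcnmb partner subunits alter gating or surface number. Some potassium channel alpha subunits, such as those of Kcnf1, Kcng1 and Kcnv1, are electrically silent on their own and modify the delayed rectifiers they join. NMDA receptors admit calcium, and activity-dependent promoters often hold sites for CREB or AP-1, the 2 factor families searched for below.

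The promoters of 3 genes are shown because Kcnf1 was the member with the smallest adjusted p-value in the single-run comparisons taken as primary, and Kcne1 and Kcnd3 had the largest rise and the largest fall among the members called in the first washed-out run. Each window runs from 250 bases before to 50 after the RefSeq start (GRCr8), 5′ to 3′ on the gene's strand. Capitals mark matches to TGACG, the CREB site's conserved stretch, or to TGAGTCA, the AP-1 site, on either strand. Kcnf1 lies at chr6:45693657-45693956 on the minus strand, Kcne1 at chr11:45076984-45077283 on the minus strand, and Kcnd3 at chr2:195626066-195626365 on the plus strand.

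Kcnf1: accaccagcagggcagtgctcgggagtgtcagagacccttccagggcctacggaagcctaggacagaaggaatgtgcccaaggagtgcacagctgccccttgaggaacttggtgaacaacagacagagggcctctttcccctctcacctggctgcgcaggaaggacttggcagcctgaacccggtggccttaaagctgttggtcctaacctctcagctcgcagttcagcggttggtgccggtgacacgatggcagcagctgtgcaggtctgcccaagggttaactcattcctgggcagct

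Kcne1: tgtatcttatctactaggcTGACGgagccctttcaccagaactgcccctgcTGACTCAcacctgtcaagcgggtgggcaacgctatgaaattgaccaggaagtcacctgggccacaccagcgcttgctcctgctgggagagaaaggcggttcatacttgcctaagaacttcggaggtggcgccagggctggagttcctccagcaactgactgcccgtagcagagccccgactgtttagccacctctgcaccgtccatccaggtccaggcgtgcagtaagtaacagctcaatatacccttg

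Kcnd3: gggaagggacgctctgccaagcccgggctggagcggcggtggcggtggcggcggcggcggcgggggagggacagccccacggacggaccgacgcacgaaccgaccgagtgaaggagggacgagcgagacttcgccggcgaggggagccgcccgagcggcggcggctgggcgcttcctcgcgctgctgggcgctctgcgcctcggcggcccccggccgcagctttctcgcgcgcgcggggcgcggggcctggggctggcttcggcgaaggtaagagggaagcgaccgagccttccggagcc

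Promoters were matched for 54 of the 71 genes. The full CREB palindrome TGACGTCA was in none of them, against 1.83% of all 33469 promoters of this length. TGACG, which the palindrome contains, was in 10 (18.5%, against 21.2% of all), and TGAGTCA was in 2, those of Kcne1 and Kcnj1 (3.70%, against 4.63%). Neither of the searched motifs was in the Kcnf1 or Kcnd3 window. The median GC content was 61.7% in the members' promoters and 51.7% in all promoters. These are matches of letters, and binding was not measured.

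Values are linear fluorescence intensities that the authors had scaled so that the trimmed mean of each array within the fitted runs lay between 2503 and 2513. Of 104 arrays used in fits, 13 stood apart from their run in correlation or in the 3′ to 5′ ratio of the control gene GAPDH, which ranged from 1.13 to 12.3 over all. They were 2 each in the continuous, pulse, crossed and repeat washed-out runs, replicate 5 of all 4 groups in the first washed-out run, and 1 control of the 15 min nicotine run. In the repeat washed-out run, control replicates 3 and 4 had a mean correlation of 0.0884 and 0.523 with the other arrays. Values without such arrays are given beside results that rest on them. All 11 neuronal markers passed the filter on low values in every run, and their summed intensity ranged from 40933 to 160116 per array. The 5 astrocyte markers summed to 6199.95 to 46249.5 and the 5 oligodendrocyte markers to 2557 to 17121, so the cultures were not neurons alone. Not all of these passed the filter in every run: the astrocyte marker Slc1a2 did so in 7 of 8 runs. The oligodendrocyte markers Sox10 and Mog passed in 5 and 3, and Itgam, the 1 microglial marker, in 2. In such bulk samples, fewer cells of a type and less RNA per cell cannot be told apart.

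Changes are differences of log2(intensity + offset) from limma fits, 1 per run, with Benjamini-Hochberg adjustment over the 884 probe sets that passed the filter. A change is called at an adjusted p under 0.05, 2-sided. Between 48 and 50 members were tested per run, 45 of them in all 8 runs with a fit and 11 in some. The other 15, Cacna1s, Kcna2, Kcna3, Kcnh6, Kcnj13, Kcnj16, Kcnj2, Kcnj6, Kcnj9, Kcnn3, Kcnq1, Kcns1, Kcnt1, Scn11a and Scn2b, were below the filter in every run and have no test here. For comparisons of 2 groups, the median half-width of a member's 95% interval was 0.44 on the log2 scale in the first washed-out run. It was from 0.49 (15 min nicotine) to 0.96 (pulse run) in the other runs. For the interactions it was wider, at 0.62 in the first washed-out run, 0.89 in the crossed run and 1.20 in the repeat washed-out run. These intervals are not adjusted for the number of probe sets, so larger changes could still miss the threshold.

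In untreated cultures the control signals of the channel genes varied between runs about as much as those of all probe sets. Over the 45 members tested in every run, the highest control mean of 9 runs was a median 2.43 times the lowest (range 1.46 to 15.1), against 2.50 over the 765 probe sets that passed in all runs. Several of the lowest means are the 1 control array of the further pulse set, and several of the highest come from the repeat washed-out run. Signals of different probe sets are not compared with each other. Among calcium channels, the control mean of Cacna1b, the pore of the N-type channel of presynaptic terminals, lay between 2308 and 3737, and that of Cacna1c, an L-type pore, between 1522 and 2344. Cacna1a, the P/Q-type pore, lay between 1840.01 and 4617, the latter in the controls of the 4R run. Cacna1d, another L-type pore, lay between 543 and 883. Sodium channel controls ranged from 2038 ± 1276 (SD, n = 5, repeat washed-out run) to 6715 ± 1490.4 (SD, n = 3, crossed run) for Scn2a, from 596 to 1268 for Scn1a and from 717 to 1581 for Scn8a, all pores of central neurons. For the potassium channels, Kcnd2, an A-type pore of dendrites, lay between 689 and 1119, Kcnc1, a fast delayed rectifier, between 289 and 571, and Kcnk1, a 2-pore channel, between 954 and 1582.

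The repeat washed-out run was the exception. The median coefficient of variation of the 71 genes among its controls was 76.0%, against 21.7% to 32.9% in the other replicated runs. Cacna2d1, the alpha2delta subunit that binds gabapentin, had a control mean of 34253 ± 70332 (SD, n = 5) there, against a median of run means of 4417, and its single control arrays over the series ran from 159.7 to 160022. Kcna4, an A-type channel, averaged 2272 ± 1764 (SD, n = 5) in that run and had a median of run means of 619. Kcna2 and Kcnj6, which were below the filter everywhere, still had control means of 739 and 1775 there, against medians of run means of 52.9 and 106.

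**Figure D1:**
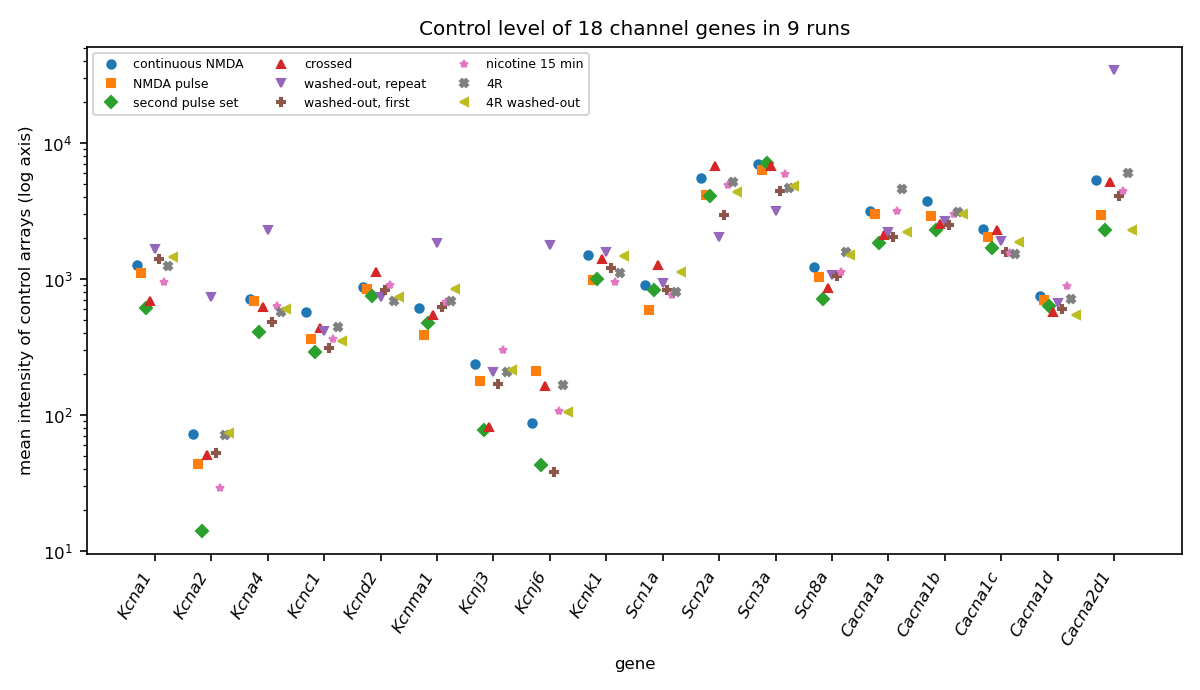
Mean control intensity (log axis) of 18 channel genes on the x axis, with 1 point per gene and run for 9 runs. Points of a gene lie close together in some cases, such as Cacna1b between 2308 and 3737, and far apart in others, such as Kcna2 between 14.0 and 739. The repeat washed-out run gives the highest point for Cacna2d1, 34253.

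With the repeat run standing for the washed-out design, no member was called in any of 21 comparisons within single runs, or in either of the 2 comparisons that joined runs. The first washed-out run, the alternative for the same RNA, had calls and is described further on. The smallest adjusted p of a member in the 21 comparisons was 0.149, for Kcnf1 after the 10 min pulse (limma with Benjamini-Hochberg adjustment). At an unadjusted p under 0.05 there were 51 of 1023 member tests (4.99%), spread over 26 of 56 genes, against 5.44% of all probe set tests. Without the arrays that stood apart there were 63 (6.16%), against 6.50%. The share of channel genes at this level was thus near that of all probe sets. Of 11 genes chosen as known responders to calcium entry, such as Fos, Nr4a1 and Bdnf, 8, 5 and 6 were called after the 10, 30 and 60 min pulses and 3 after NMDA in the crossed run. Under continuous NMDA, 2 were called at 60 and at 180 min and 0 at the other times. After washed-out NMDA, 1 was called in the repeat run, against 8 in the first run of the same RNA. Comparisons of nicotine or 4R with their controls called 0 of the 11.

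**Figure D2:**
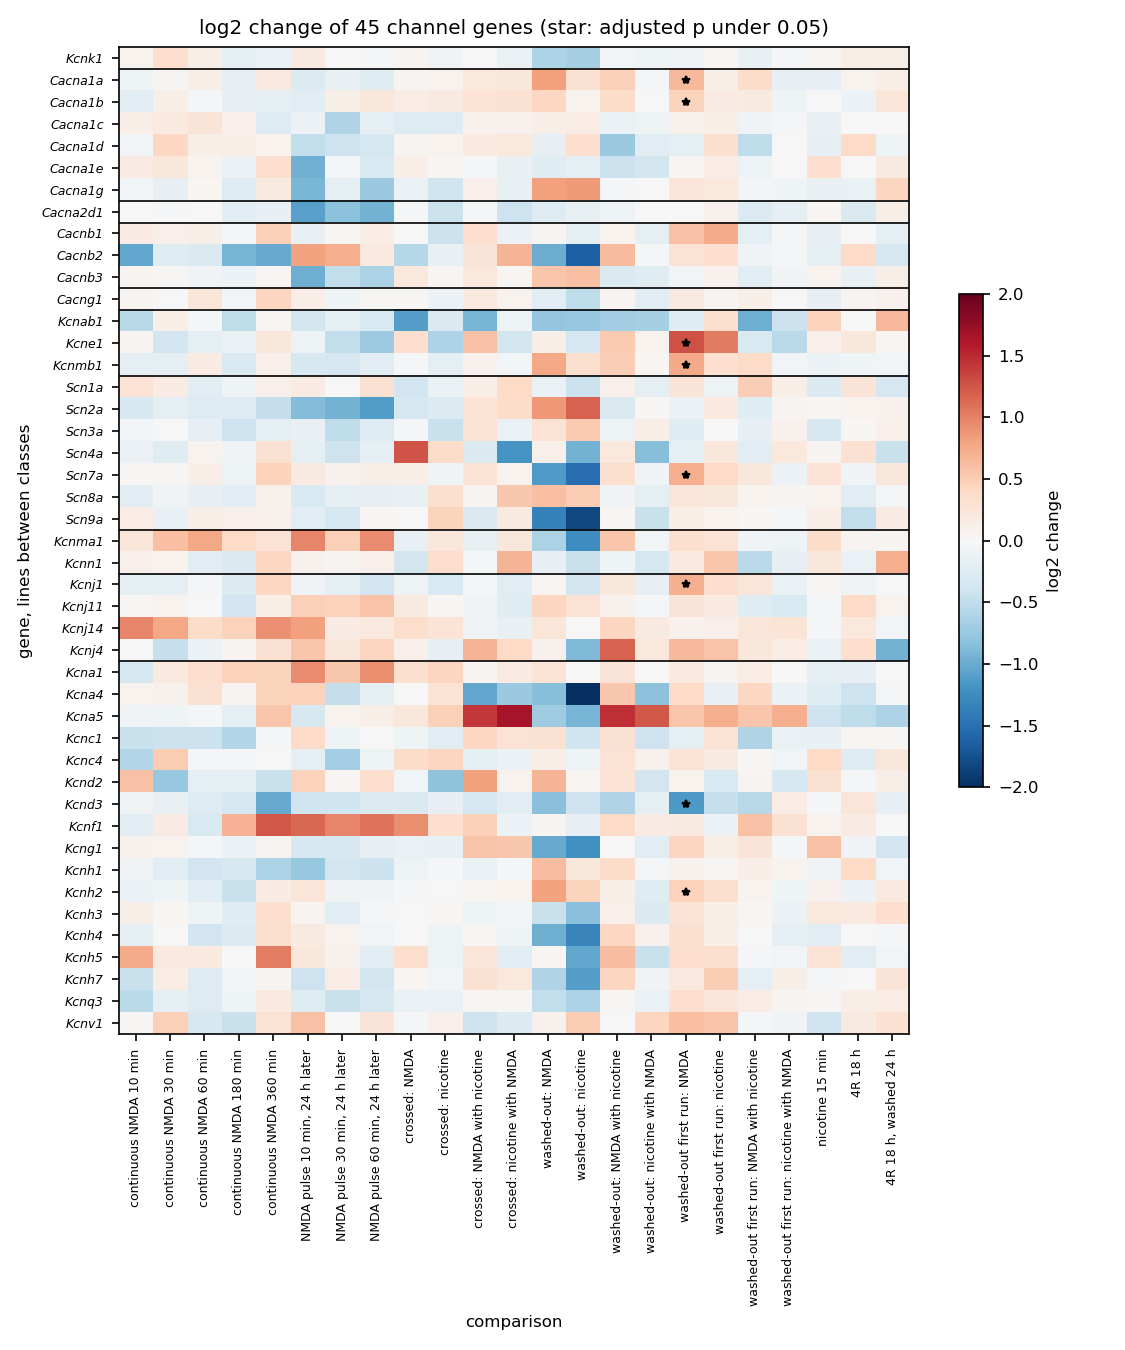
Heatmap of the log2 change of the 45 genes tested in every run (rows) in 23 comparisons (columns), blue lower and red higher, with a star where the adjusted p was under 0.05. Stars appear in 1 column alone, that of NMDA in the first washed-out run, and the Kcnf1 row is red in the pulse columns, at 1.15, 0.98 and 1.09.

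Kcnf1, the silent subunit whose promoter is shown above, had the largest rise of any member at each pulse length with all arrays used, although none passed the test. In the pulse run the control arrays read 674, 254, 362 and 455. After the 10 min pulse they read 1049, 882, 1525 and 687, all above every control. The values were 1268, 849.5, 838 and 647 after 30 min, where 3 of 4 lay above every control, and 917, 831, 739 and 1442 after 60 min, where all 4 did. One label of replicate 1 at 30 min also names 60 min, and the array was kept in the group its title gives. The log2 changes were 1.15 (SE 0.36, 95% interval 0.40 to 1.90, adjusted p = 0.149), 0.98 (adjusted p = 0.446) and 1.09 (adjusted p = 0.227), and the second was 0.81 (adjusted p = 0.998) without that array. Without the 2 arrays that stood apart, Kcnf1 was 0.96 after 10 min and 0.90 after 60 min, and Cacnb2 rose more, by 1.04 and 0.97. In a test over the 3 pulse lengths together, 0 of 50 members were called, against 13 of 884 probe sets (1.47%), and Kcnf1 had an adjusted p of 0.484. In the further pulse set, with 1 array per group, the control read 394 and the 3 pulses 796, 897 and 922, which are differences of 0.93, 1.09 and 1.13 with no test. The culture labels pair the arrays of the pulse run by replicate, and replicates 3 and 4 share a date. With the replicate as a block and without the 2 arrays that stood apart, the 30 min change was still 0.98, with an adjusted p of 0.0299. Averaging cultures with their repeat arrays gave 1.26 at 10 min, with an adjusted p of 0.0326, where 1 of the 2 repeats at 10 min held the values of its first array and is no new measurement.

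Under continuous NMDA, Kcnf1 overlapped the controls at the early times. Controls read 499.6, 579 and 559.6, and the 10 min arrays 352, 698 and 374. At 180 min the arrays read 1359, 369 and 1557, with 1 below every control. At 360 min they read 1121, 1774 and 1390.2, and all 3 lay above every control. The 360 min change was 1.24 (SE 0.50, 95% interval 0.18 to 2.30, adjusted p = 0.493), and 1.08 without the array that stood apart. In a test over the 5 times together, 0 of 48 members were called, against 8 of 884 probe sets (0.905%), and Kcnf1 had an adjusted p of 0.649. In the crossed run, Kcnf1 read 319, 179.5 and 314 in controls and 432, 633 and 618 after 60 min of NMDA, a change of 0.93 (SE 0.33, adjusted p = 0.626), or 0.62 without 1 control and 1 treated array that stood apart. It read 217, 356 and 532 with nicotine alone and 549, 412 and 573 with both, so those groups overlapped. For the same 60 min of NMDA, the joint Kcnf1 change over the continuous and crossed runs was 0.31. The continuous minus the crossed change was −1.24, which was not called. In that comparison of runs 0 of 47 members were at an unadjusted p under 0.05, against 1.54% of probe sets.

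After 30 min of NMDA and 24 h of washout, Kcnf1 read 511, 538, 556, 709.5 and 468 in the controls of the first run and 668, 477, 632, 667 and 736 with NMDA, a change of 0.18. In the repeat run the same RNA read 519, 285, 7615, 266 and 775 in controls and 740.2, 515, 858, 1100.2 and 959 with NMDA. The third control was far above every other array, and the change was 0.05, or 0.66 (adjusted p = 0.19) without the 2 controls that stood apart. Over the pulse and repeat runs jointly, the 30 min change was 0.52 (adjusted p = 0.86), or 0.82 (adjusted p = 0.0743) without the arrays that stood apart.

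**Figure D3:**
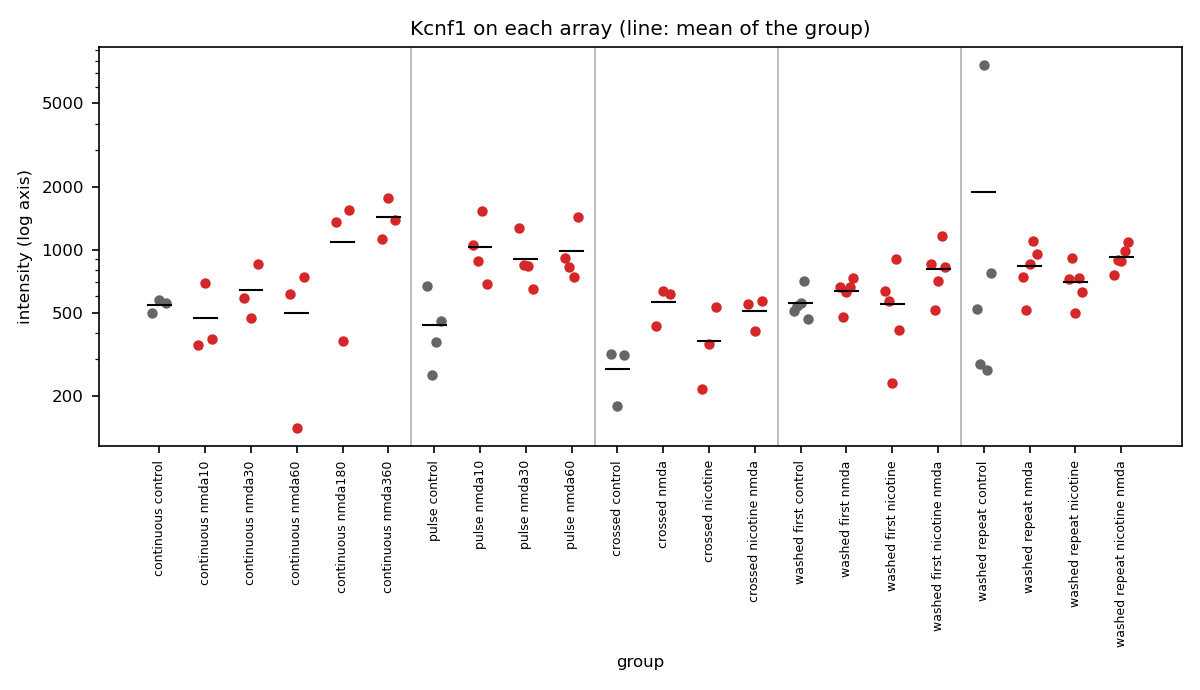
Kcnf1 intensity (log axis) on each array of 5 runs, controls in grey and treated groups in red, with a line at each group mean. In the pulse run all 4 arrays after 10 and 60 min lie above the 4 controls (254 to 674), and in the repeat washed-out run 1 control lies at 7615.

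The pulse run gave 2, 1 and 2 of 50 members at an unadjusted p under 0.05 after 10, 30 and 60 min (4.0%, 2.0% and 4.0%), against 9.28%, 5.09% and 6.11% of all probe sets. None was called, against 2.26%, 1.36% and 1.58%. Without the 2 arrays that stood apart the counts were 10, 4 and 7 of 50, against 13.5%, 9.95% and 11.1%. Cacnb3, a calcium channel beta subunit that carries the pore to the membrane, read 2170.1, 3189, 2536 and 2878 in controls and 1381, 1420.4, 847 and 1821 after 10 min. All 4 treated arrays lay below every control, and the change was −0.98 (SE 0.33, adjusted p = 0.248). It was −0.50 after 30 min and −0.63 after 60 min. The further set read 3243 in the control and 1897, 2403 and 2044 after the pulses. With the replicate block and without the arrays that stood apart, the 10 min change was −0.74, with an adjusted p of 0.0405.

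Scn2a, the sodium channel pore of axon initial segments early in development, differed by culture. Controls read 3187, 4529, 3930.25 and 4961. After 60 min the arrays read 1007, 1083, 3236 and 3287, a change of −1.12 (SE 0.50, adjusted p = 0.688). Cultures 1 and 2 were between 1007 and 1669 after each pulse length, and cultures 3 and 4, which share a date, were between 2995 and 3881. With the replicate block and without the arrays that stood apart, the 60 min change was −1.21, with an adjusted p of 0.0276. The further set read 4074 in the control and 2572, 1853 and 1969 after the pulses. In the repeat washed-out run, the Scn2a change after 30 min of NMDA was 0.86, or 0.23 without the 2 controls that stood apart, 1 of which read 339, against −0.95 in the pulse run.

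Kcna1, a low-threshold potassium channel of axons, read 502, 675, 1810.1 and 1405 in controls and 1286, 1526, 4714 and 1468 after 10 min, a change of 0.94 (adjusted p = 0.528). The groups overlapped. In the further set it read 612 in the 1 control and 1562, 1687 and 1605 after the pulses. That control is the lowest Kcna1 control mean of 9 runs, whose median is 1246. The other Kcna1 probe set changed by 0.77, 0.46 and 0.88 at the 3 pulse lengths in the pulse run, none called. Without the 2 arrays that stood apart, Kcna1 was 0.52 after 10 min. Cacna2d1 had the lowest value of the members after 10 min, −1.08, and was −0.41 without them.

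**Figure D4:**
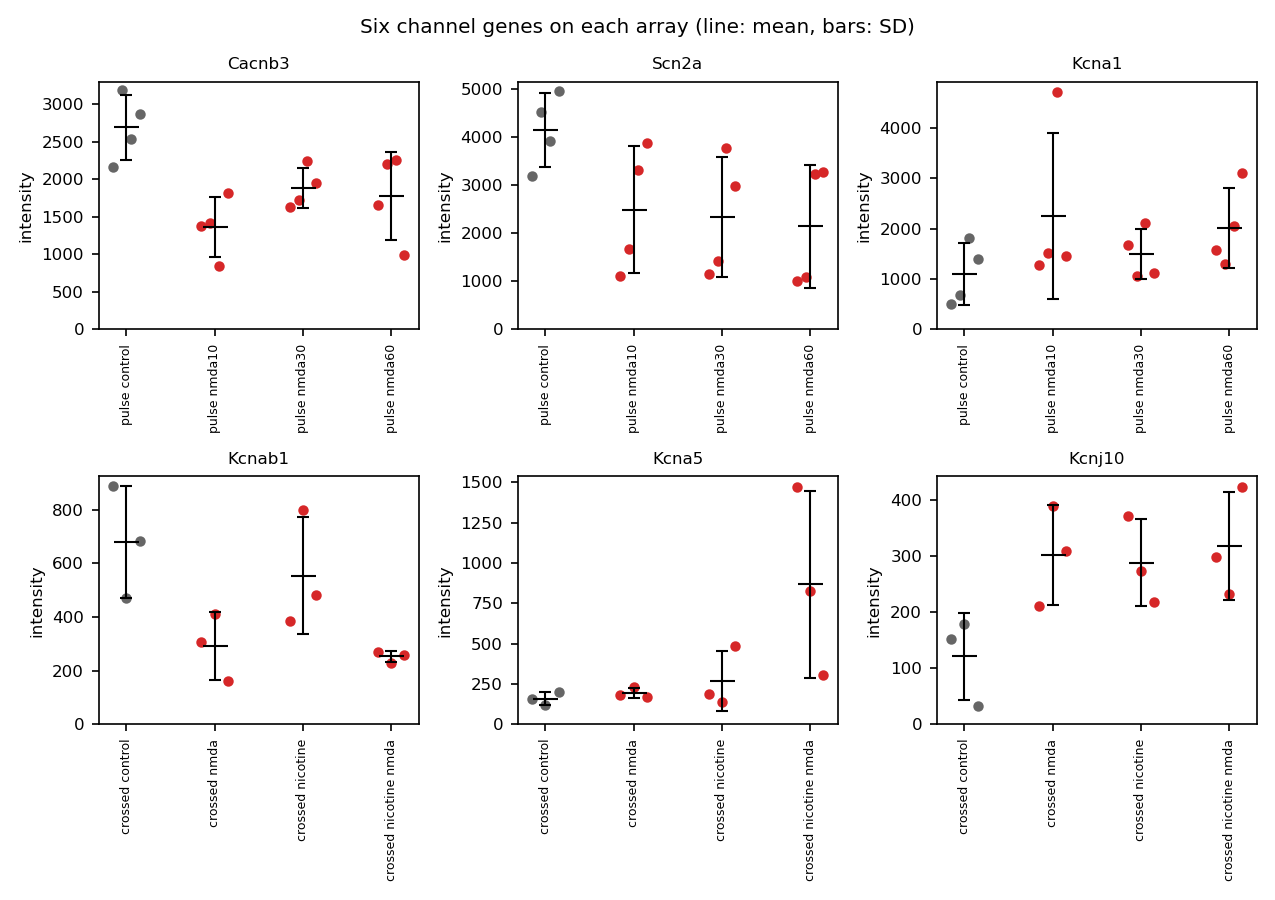
Intensity on each array for Cacnb3, Scn2a and Kcna1 in the pulse run and for Kcnab1, Kcna5 and Kcnj10 in the crossed run, with the group mean as a line and 1 SD as bars. Cacnb3 after 10 min (847 to 1821) lies below all controls (2170.1 to 3189), while Scn2a splits into a low and a high pair after each pulse.

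With NMDA left in the medium, changes of the channel genes were small beside their intervals. At an unadjusted p under 0.05 there were 0, 1, 1, 0 and 4 of 48 members at 10, 30, 60, 180 and 360 min, against 7.13%, 1.81%, 2.26%, 3.96% and 8.14% of all probe sets. None was called, against 0%, 0%, 0.679%, 0.452% and 0%. The member at 30 min was Kcnj5, an inward rectifier opened by G proteins, which read 388, 533 and 366 in controls and 68.6, 474 and 73.7 with NMDA (−1.09). The member at 60 min was Kcnma1, the pore of the large-conductance calcium-activated channel, which read 329, 822 and 669 in controls and 862, 1407 and 908 with NMDA (0.77). At 360 min the 4 were Kcnf1, Kcnh5 (1.02), Kcnh1 (−0.61) and Kcnd3 (−1.01), of which Kcnh1 and Kcnh5 are pores of the ether-a-go-go family. Kcnh1 read 849.97, 1183 and 1252 in controls and 778, 635 and 629.7 at 360 min, with no overlap. Kcnd3 read 1047, 685 and 1101 in controls and 612, 152 and 681 at 360 min, the lowest of which was on the array that stood apart. Without that array Kcnd3 was −0.47, Kcnh5 0.57 and Kcnh1 −0.57. In the fit without the 2 arrays of this run that stood apart, 1 of 48 members was at an unadjusted p under 0.05 at 360 min, against 8.60% of probe sets. None was called there, against 16 of 884 probe sets. The median member change was −0.17 at 180 min and 0.16 at 360 min, against −0.07 and 0.01 over all probe sets.

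The crossed run asked whether 18 h of nicotine altered the response to 60 min of NMDA. No member was called for any of its 5 comparisons, against 0.905% of probe sets for NMDA, 1.02% for NMDA in the presence of nicotine and 0% for the rest. At an unadjusted p under 0.05 there were 4 of 49 members for NMDA (8.16%, against 6.22%), 2 for nicotine (4.08%, against 4.52%), 4 for NMDA in the presence of nicotine (8.16%, against 3.28%), 3 for nicotine in the presence of NMDA (6.12%, against 1.58%) and 1 for the interaction (2.04%, against 1.81%). Kcnab1, a beta subunit that speeds inactivation of A-type potassium currents, read 887, 469 and 683 in controls and 306, 413 and 160.1 with NMDA, with no overlap (−1.10, SE 0.36, adjusted p = 0.485). It read 385, 799 and 481 with nicotine and 271, 229 and 259 with both, again with no overlap (−0.93, SE 0.36, adjusted p = 0.996). Without 1 control and 1 NMDA array that stood apart, the Kcnab1 change for NMDA alone was −1.57 (adjusted p = 0.139). After washed-out NMDA, Kcnab1 changed by −0.24 in the first run and by −0.78 in the repeat run, where 1 control read 8863 and the other 4 read 218 to 566, and by 0.11 without the 2 controls that stood apart.

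Kcna5, a delayed rectifier best known from heart, read 158, 119 and 197 in controls, 182, 229.8 and 170.2 with NMDA, 185, 139 and 483 with nicotine and 1467, 824 and 306 with both. All 3 arrays with both lay above every array with NMDA alone, a change of 1.66 for nicotine in the presence of NMDA and of 1.42 for NMDA in the presence of nicotine, neither called. Scn4a, the sodium channel of skeletal muscle, read 166, 179 and 704 in controls and 831, 757 and 707 with NMDA (1.26), where 1 control lay just below the treated arrays, and its interaction was −1.55 (adjusted p = 0.996). Without the arrays that stood apart, Scn4a was 1.00 for NMDA and −1.29 for the interaction, and Kcna5 was 1.75 for nicotine in the presence of NMDA. Kcnj10, the inward rectifier of glia, read 152, 179.6 and 33.0 in controls and 372, 274 and 219 with nicotine, with no overlap (1.04, adjusted p = 0.721). Its change for NMDA alone was 1.10. These controls had the lowest Kcnj10 control mean of 9 runs, 121 against a median of run means of 372. Over the same groups the summed astrocyte markers were 32017 to 46249.5 in controls and 35131 to 36839 with nicotine, and their part in the Kcnj10 values was not tested.

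In the repeat washed-out run no member was called, against 0.226% of probe sets for NMDA and 0% for the other 4 comparisons. At an unadjusted p under 0.05 there were 9 of 48 members for NMDA (18.8%, against 16.7%), 13 for nicotine (27.1%, against 20.1%) and 1 for NMDA in the presence of nicotine (2.08%, against 4.86%). Without control replicates 3 and 4 these became 11 (22.9%, against 19.8%), 4 (8.33%, against 6.79%) and 8 (16.7%, against 14.9%). For Kcna4 after nicotine, controls read 1332, 721, 4392, 3974 and 942 and treated arrays 99.6, 445, 135, 589 and 809.9, a change of −2.22 (adjusted p = 0.202) that was −1.40 (adjusted p = 0.573) without those 2 controls and −0.15 in the first run. Without control replicate 2 instead, it was −2.52, with an adjusted p of 0.0406. Kcng1, another silent subunit, changed by −1.21 after nicotine, by −0.38 without those controls and by 0.13 in the first run. Cacna1g, a T-type pore, changed by 0.82 after NMDA and by 0.31 without them.

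Kcna5 again had its largest value where both agents were given. In the repeat run it read 114, 184, 142, 207 and 731 with nicotine and 490.3, 720.03, 1425, 537 and 711 with both. The last nicotine array lay within the range of the combined group. The change for NMDA in the presence of nicotine was 1.46 (adjusted p = 0.455, or 0.056 without the 2 controls). Nicotine alone had changed Kcna5 by −0.93 from all controls, so the 1.46 is counted from a group below them. In the first run the same RNA read 197, 181, 210.4, 718 and 296 with nicotine and 136, 215, 1054, 776 and 568.1 with both, which overlapped, a change of 0.55. The interaction was 2.18 in the repeat run, 1.90 without the 2 controls, and 0.0052 in the first run.

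The first run of these 20 RNA samples is the one place where channel genes were called. After NMDA 8 of 50 members were called (16%), 7 higher and 1 lower, against 124 of 884 probe sets (14%), 98 higher and 26 lower. These 8 are named after their values were seen. In the same comparison 1 of 11 neuronal, 0 of 5 astrocyte and 1 of 4 tested oligodendrocyte markers were called higher. The summed oligodendrocyte markers were 3129 to 4911 in controls and 3906 to 7814 with NMDA, the neuronal ones 125511 to 143580 and 119659 to 137780, and their part in the channel gene values was not tested. The median change was 0.25 over the members and 0.16 over all probe sets. Kcnmb1, the smooth muscle partner of the large-conductance calcium-activated channel, read 1407, 1355, 1117, 1089 and 1354 in controls and 1969, 2329, 1977, 2024 and 2636 with NMDA, with no overlap (0.76, adjusted p = 0.0030). Kcne1, the partner of the slow cardiac delayed rectifier, read 68.3, 272, 148, 58.3 and 227 in controls and 359, 260.5, 381, 518 and 644 with NMDA, where 1 treated array lay below 1 control (1.28, adjusted p = 0.0078). Kcnd3, an A-type pore, was the member that fell: controls read 1065, 1077, 974, 937 and 647 and NMDA arrays 352, 390.3, 289.7, 507 and 411, with no overlap (−1.16, adjusted p = 0.0105). 

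The presynaptic calcium channel pores were both higher. Cacna1b read 2685, 2649, 2347, 2243 and 2613 in controls and 3677, 3521, 3053, 3264 and 3674 with NMDA, with no overlap (0.45, adjusted p = 0.0078). Cacna1a read 2579.9, 1757, 2626, 1498 and 1726 in controls and 3764, 2709.6, 2994, 3294 and 3139.7 with NMDA, also with no overlap (0.66, adjusted p = 0.0320), and its adjusted p was 0.080 without replicate 5 of each group, which stood apart. The sodium sensor Scn7a (0.73, adjusted p = 0.0078), the Kcnh2 delayed rectifier (0.47, adjusted p = 0.0222) and the Kcnj1 inward rectifier (0.72, adjusted p = 0.0267) were called higher too. Scn7a read 310.4 to 569.9 in controls and 650.5 to 860.03 with NMDA, Kcnj1 544 to 858 and 972 to 1163, neither with overlap, and Kcnh2 1101.5 to 1759.5 and 1674 to 2092, with overlap. Leaving out control replicate 4 left 5 of the 8, and the share over all probe sets for that fit is not given here. Leaving out replicate 5 of all groups left 7 of 50 members called, against 121 of 884 probe sets, so the shares were again close.

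The direction of the calls rested on the scaling. The authors' scaling left the median of all changes at 0.16, and centring each array on its median moved it to −0.11. The split of all called probe sets then went from 98 higher and 26 lower to 34 higher and 148 lower, and that of members from 7 and 1 to 3 and 3. With quantile normalization it was 20 and 14 over all and 3 and 1 for members. Kcnd3, Kcne1 and Kcnmb1 were called under all 3 scalings. Probe sets of a gene did not always agree: for Kcnd3, the other 2 tested probe sets changed by 0.59 and 0.45, opposite in sign to the called one, and for Kcnh2 the other changed by −0.29 (adjusted p = 0.163).

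In the repeat run, without control replicates 3 and 4, the same 8 genes changed by 0.87 (Kcnmb1, adjusted p = 0.063), 0.61 (Kcne1, 0.476), −0.26 (Kcnd3, 0.643), 0.23 (Cacna1b), 0.57 (Cacna1a, 0.093), 0.16 (Scn7a), 0.63 (Kcnh2, 0.067) and 0.44 (Kcnj1). By the probe set that stands for each gene, all 8 had the sign of the first run, and none was called. With those controls kept, Kcne1 was 0.12, Kcnj1 0.03 and Scn7a −1.13, the 1 gene of the 8 with the opposite sign. Its controls read 8403 and 7848 on these 2 arrays and 699.6 to 1000.5 on the other 3. Again with those controls kept, the other Kcnmb1 probe set changed by −1.69 (adjusted p = 0.231) and those of Cacna1a by −0.88, −0.51 and 0.39. The other sets of Cacna1b, Kcnh2 and Kcnj1 changed by 0.33, 0.15 and −0.10, and the 2 of Kcnd3 by −0.31 and 0.28. None of them was called. The RNA was the same, so the repeat run is a repeat of the hybridisation and no independent sample. Over all 20 RNA samples, the difference between a sample's 2 arrays had a median SD over members of 0.75 (0.29 for the least variable and 1.38 for the most), against 0.75 over 856 probe sets. The median correlation over members between the arrays of a sample was 0.877, and it was 0.269 and 0.0046 for control samples 3 and 4. First-run nicotine called 0 of 50 members, against 0.339%, and NMDA in the presence of nicotine called 0, against 2.04%. Without the 4 first-run arrays that stood apart, the latter called 1 of 50, Kcnd3, against 40 of 884 probe sets.

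**Figure D5:**
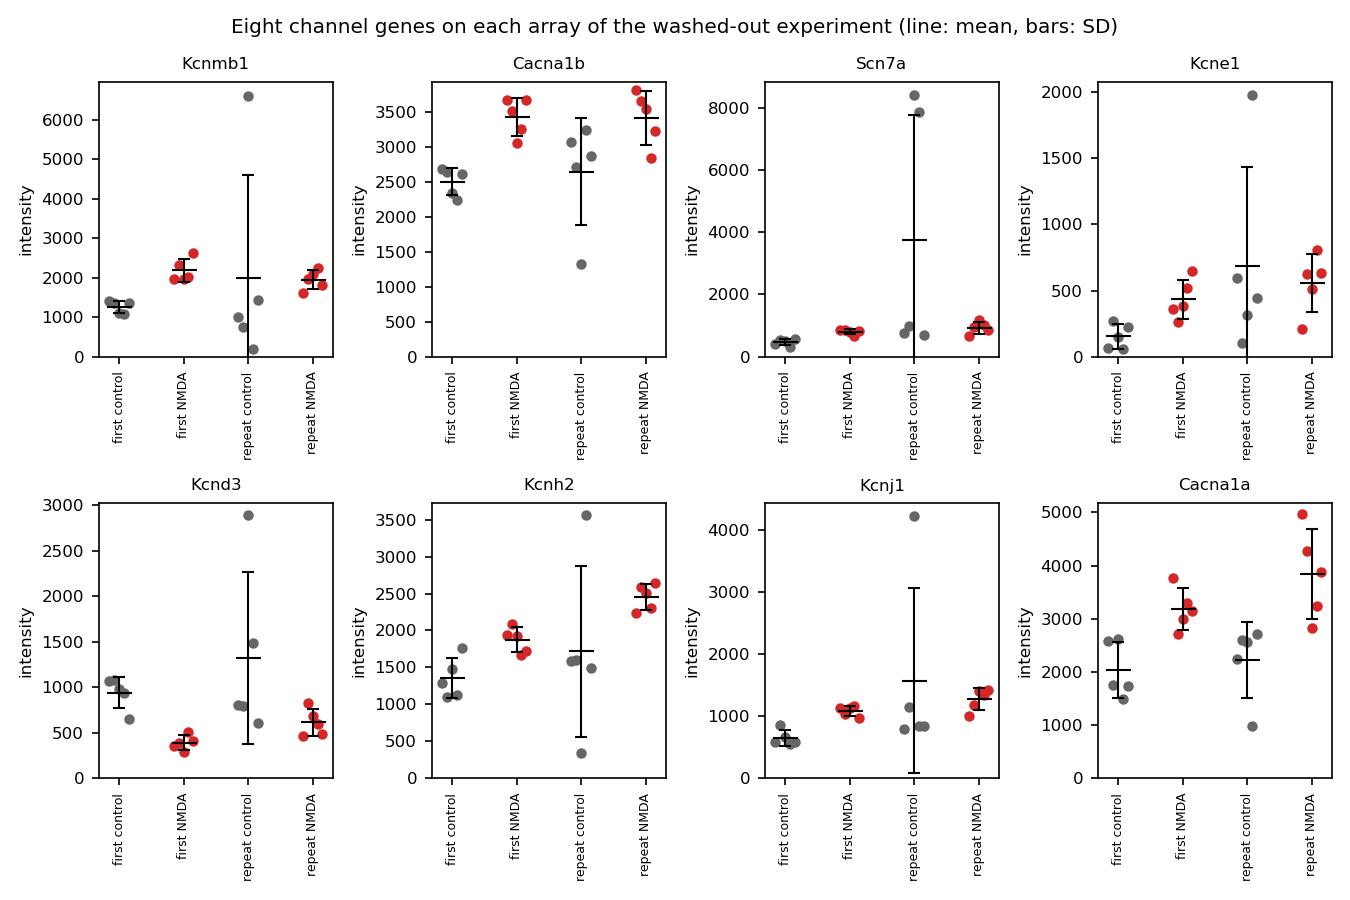
Intensity of the 8 called genes on each array of the control and NMDA groups in the first and repeat washed-out runs, with the group mean as a line and 1 SD as bars. In the first run the Kcnd3 groups do not overlap (647 to 1077 against 289.7 to 507), and in the repeat run 2 controls of Scn7a lie at 8403 and 7848.

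Brief nicotine and 4R gave no channel gene at an unadjusted p under 0.05 by the probe set that stands for it: 0 of 49 after 15 min of nicotine (against 3.28% of probe sets), 0 of 50 after 4R (2.04%) and 0 of 49 after 4R and washout (1.58%), and none was called, against 0% in each. Of the other probe sets of members, 2 of 18 were at this level after nicotine (Cacna1a 1.43 and Scn8a −0.70), 1 of 18 after 4R (Kcnh2 0.51) and 0 of 17 after 4R and washout, none called. The members with the smallest p were Kcnc4 after nicotine (0.40), Kcnj11, the pore of the ATP-sensitive channel, after 4R (0.38), and Kcnj4 after 4R and washout (−0.94), all with adjusted p near 1. Member changes ran from −0.41 to 0.59 after nicotine and from −0.50 to 0.40 after 4R, with median interval half-widths of 0.49 and 0.55.

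Joining runs did not bring out other members. For 60 min of NMDA over the continuous and crossed runs, 0 of 47 members were called, against 1.3% of 844 probe sets, and the 5 with the smallest p were Scn4a (0.66), Kcnab1 (−0.57), Kcnj10 (0.48), Scn2a (−0.31) and Kcnn1 (−0.29). For the 30 min pulse over the pulse and repeat runs, 0 of 48 were called, against 1.43% of 842, and they were Kcng1 (−0.67), Kcnj11 (0.44), Kcna4 (−0.67), Scn9a (−0.85) and Kcnd3 (−0.61). Without the arrays that stood apart these 5 were −0.26, 0.33, −0.26, −0.13 and −0.33, and Kcnab1 over the 60 min runs was −0.81. Among 16 other ion-handling genes on the array (chloride channels, pumps, exchangers, calmodulins and the like), 13 or 14 were tested per run, and none was called in the single-run comparisons taken as primary. In the first washed-out run, 1 of 13 was called higher after NMDA.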

How the data were processed

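The authors deposited linear intensity values per probe set, already scaled within runs; scanner software, background correction and genome build are not given in the sources used here. The 59 control probe sets were removed, leaving 1263, of which 1137 carry 1 gene symbol in the platform annotation, 8 several and 118 none. Each of 8 runs was fitted with limma 3.58.1 (R 4.3.3; all groups, intensity trend) on log2(intensity + the run's 10th percentile), which understates changes of dim genes; 884 probe sets per run passed a filter at the 30th percentile of the run's mean. The fit was also run on simulated arrays with independent noise and planted changes. These held no arrays that stood apart, no pairing and no scaling shifts, so that run does not address them. Array number limits precision. Labels with culture dates pair the pulse, crossed and 4R runs by replicate, and deviations pair the continuous run (lowest same-number correlation 0.109). Named genes were those called, the 3 with the smallest p per comparison (5 in joint ones) and a fixed list of widely studied genes, of which 18 are reported here; Kcnf1 across all NMDA comparisons and the first-run calls were added after their values were seen. Members and lists were chosen with earlier results of these data known. The repeat washed-out run was taken as primary.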

Additional observations from a re-analysis of the deposited data

Results flagged for a closer look

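In 76 combinations of a gene and a group of 4 or 5 arrays, 1 array lay far from the others 7 times by Dixon's gap criterion, and chance gives about 1 in 20. In the repeat washed-out controls, Cacna1a read 986 in replicate 4 (next lowest 2242), Cacna1b 1322 in replicate 3 (next lowest 2711) and Kcnj1 4229 in replicate 3 (next highest 1142). These are the 2 arrays that correlated poorly with the rest of their run. In the repeat run, Kcna5 read 731 in nicotine replicate 5 (next highest 207), and Cacna1d read 576 in replicate 5 of nicotine with NMDA (next highest 388). In the first run, Kcnd3 read 647 in control replicate 5 (next lowest 937), which is an array that stood apart, and Scn7a read 650.5 in NMDA replicate 4 (next lowest 801).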

How the results depend on the processing

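Over 97 changes of named genes, 1818 alternatives were run: 1752 kept the direction and the side of the threshold, 15 newly passed it, 26 (first-run genes) no longer did and 25 reversed. The 25 counts of called members had another value in 8 of 459 alternatives. With the replicate block and without the arrays that stood apart, the count went from 0 to 1 after the 10, 30 and 60 min pulses and after washed-out NMDA with nicotine (Kcna5), and to 2 after washed-out NMDA (Cacna1a, Kcnmb1); in the washed-out and 15 min nicotine runs cultures share only a number, and the replicate block alone changed no count of the primary comparisons. Averaging in repeat arrays gave 1 after the 10 min pulse, the first run gave 8 for NMDA, and leaving out replicates gave 0 to 1 for washed-out nicotine. Leaving out replicates moved Kcnf1 from −0.041 to 0.34 (continuous 30 min), −0.66 to 0.27 (60 min) and −0.29 to 0.85 (washed-out NMDA), Kcnh4 from −0.74 to 0.048 (60 min), and, for washed-out NMDA, Kcne1 from −0.30 to 0.61 and Kcnj1 from −0.11 to 0.47. Kcnf1 at continuous 10 min was 0.014 with the block and without apart-standing arrays, and −0.042 with the offset at the 25th percentile for washed-out NMDA. For Scn7a after washed-out NMDA, leaving out those arrays gave 0.16, adding the block 0.092 and the first run 0.73. The first run also reversed Kcng1 (0.43 after NMDA, 0.13 after nicotine), Scn4a for nicotine with NMDA (0.22) and the Cacnb2 interaction (−0.35). Beyond the arrays left out, the cause was not tested.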
